A study of Mus musculus with 19 samples.

Results

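The cytochrome P450 enzymes of families 1 to 3 carry out most of the oxidation of drugs, pollutants and dietary chemicals in the liver, and 41 of their genes were followed here in livers of mice given polyethylene particles (PE) on a control or a metabolic diet. A gene was taken as a member when its symbol named a gene of family 1, 2 or 3, pseudogenes left out, and when it reached a mean of 1 CPM (counts scaled to a common library size, with TMM correcting for library composition) in at least 1 group of mice. Of 55836 genes listed, 60 had such a symbol and 41 passed. They fall into 14 subfamilies, with 14 members in Cyp2c, 6 in Cyp2d, 4 in Cyp3a, 3 each in Cyp2a and Cyp2j, 2 each in Cyp1a and Cyp2b, and 1 each in Cyp1b, Cyp2e, Cyp2f, Cyp2g, Cyp2r, Cyp2s and Cyp2u. The members nearest above the threshold were Cyp1a1, whose highest group mean was 1.01 CPM, Cyp1b1 at 1.04 CPM and Cyp2s1 at 1.11 CPM, and those nearest below it were Cyp2d11 at 0.632 CPM and Cyp2a4 at 0.534 CPM. Cyp3a41a and Cyp3a41b end in a letter and fall outside the rule.

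The study sequenced RNA from whole liver of male wild-type (WT) C57BL/6 mice, which were 8 weeks old at the start and stayed on their diet for 8 weeks, with 1 library per mouse. The labels name the groups Chow Diet, Chow Diet + Microplastics, MASH Diet and MASH Diet + Microplastics, and they are called here CD + Veh, with 4 mice, and CD + PE, MD + Veh and MD + PE, with 5 mice each. CD was a low-fat control diet with sucrose, and MD a diet high in fat, fructose and cholesterol of the kind used to model metabolic dysfunction-associated steatohepatitis (MASH). PE mice received 2 mg of particles per day by oral gavage in water with Tween 20, vehicle mice the same liquid without particles, and mice of a group were housed together, so that cage and group cannot be told apart.

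P450s are haem proteins of the endoplasmic reticulum that insert an atom of oxygen into their substrate, with electrons passed on by the reductase Por and by cytochrome b5. In hepatocytes their genes answer to ligand-activated regulators: the aryl hydrocarbon receptor (AHR) for Cyp1a and Cyp1b, the constitutive androstane receptor (CAR, Nr1i3) for Cyp2b and parts of Cyp2c, and the pregnane X receptor (PXR, Nr1i2) for Cyp3a. Many are also zoned along the liver lobule, with Cyp2e1 and Cyp1a2 highest around the central vein and Cyp2f2 around the portal vein, and several of Cyp2a, Cyp2b, Cyp2c and Cyp2d differ between males and females.

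Each library held between 10398820 and 15456729 counts, with 13940970 to 15456729 for CD + Veh, 13406037 to 15417813 for MD + Veh, 10398820 to 12654401 for CD + PE and 11163063 to 12757617 for MD + PE. Vehicle libraries were numbered 39 to 47 and PE libraries 48 to 57, so the order of the libraries and PE cannot be told apart. The hepatocyte gene Alb lay between 30480 and 69060 CPM in all 19 libraries. A few libraries held RNA of other cells. The summed CPM of 8 skeletal muscle markers reached 3013 in MD + Veh replicate 1, 405.9 in CD + PE replicate 1 and at most 189.3 elsewhere. That of 8 intestinal epithelium markers was 222.9 in MD + PE replicate 2 and at most 130.8 elsewhere, with Cdx2 at 2.02 CPM in that library and 0 in the other 18. That of 7 Kupffer cell markers was 625.5 in CD + PE replicate 2 and at most 270.0 elsewhere. Whether RNA of other cells had a part in the results below was not tested beyond leaving libraries out. In whole liver, fewer cells of a type and less RNA per cell cannot be told apart.

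Together the 41 members took 1.22% ± 0.118 (SD, n = 4) of all counts in CD + Veh and 1.49% ± 0.165 (n = 5) in CD + PE. On MD the share was 1.66% ± 0.122 (n = 5) with vehicle and 2.05% ± 0.192 (n = 5) with PE. The share ran from 1.11 to 1.38% in CD + Veh and from 1.83 to 2.25% in MD + PE, so these groups did not overlap. Cyp2e1 alone made up 25.6 to 39.3% of the member counts in every library. Summed over its 4 members, Cyp3a stood at 953 ± 158 with CD + Veh, 1488 ± 319 with CD + PE, 2571 ± 373 with MD + Veh and 3526 ± 443 with MD + PE (CPM, mean ± SD). Cyp2c summed to 2016 ± 330.1 with CD + Veh, 2553 ± 289.7 with CD + PE, 2846 ± 381 with MD + Veh and 3172 ± 712 with MD + PE, and Cyp2d to 2639 ± 159.5 with CD + Veh, 2876 ± 461 with CD + PE, 2739 ± 303 with MD + Veh and 2863 ± 435 with MD + PE. The Cyp3a sum ran from 736.1 to 1105 CPM in CD + Veh and from 2976 to 3909 CPM in MD + PE, without overlap, whereas the Cyp2d sums overlapped. No test was made on such sums.

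**Figure D1:**
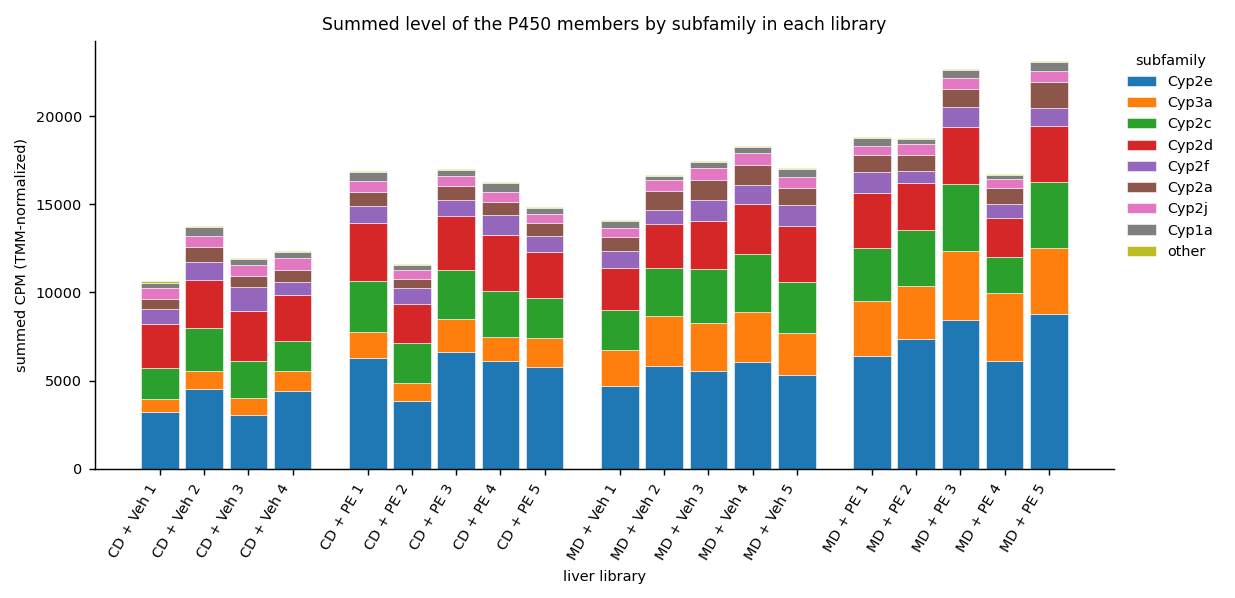
Stacked bars give the summed level (CPM, TMM-normalized) of the members of each subfamily in each of the 19 liver libraries, grouped by diet and gavage. Bars run from 10640 CPM (CD + Veh replicate 1) to 23120 CPM (MD + PE replicate 5), and Cyp2e is the largest block in the group means.

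Divided by transcript length, Cyp2e1, which oxidises ethanol and small solvents, was the most abundant member in every group, at 1809 with CD + Veh, 2715 with CD + PE, 2602 with MD + Veh and 3518 with MD + PE (CPM per kb, group means). In CD + Veh the next were Cyp2f2 at 529 CPM per kb, Cyp2d9 at 504 and Cyp2d26 at 409, and Cyp3a11 stood at 265. In MD + PE, Cyp3a11 took second place at 1204 CPM per kb, followed by Cyp2c29 at 580 and Cyp2d26 at 565. At the low end, Cyp1a1, Cyp1b1, Cyp2b9, Cyp2b10, Cyp2c39, Cyp2c65, Cyp2g1 and Cyp2s1 stayed below 1 CPM per kb in all 4 groups.

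Of the 41 members, 40 passed the filter on low counts and were tested among 13597 genes. The filter left out Cyp2c65, which had no more than 0.301 CPM in 18 libraries. Calls required an adjusted p under 0.05 together with a log2 fold change of 0.38 or more in either direction, and are those of edgeR on all 19 libraries unless another fit is named. In MD + Veh against CD + Veh, 14 of the 40 members were called, 10 higher and 4 lower, against 10.4% of all genes tested (4.74% higher and 5.63% lower). In CD + PE against CD + Veh, 4 were called, 2 higher and 2 lower, against 2.92% of all genes (1.22% higher and 1.7% lower). For MD + PE against CD + PE, 10 were called, 6 higher and 4 lower, against 4.6% (1.68% higher and 2.92% lower). For MD + PE against CD + Veh, 17 were called, 11 higher and 6 lower, against 14.6% (6.03% higher and 8.55% lower). Because membership used the group means, 8 members (Cyp1a1, Cyp1b1, Cyp2b9, Cyp2b10, Cyp2c65, Cyp2g1 and Cyp2s1 through MD groups, Cyp2c69 through CD groups) reached 1 CPM on 1 diet only, 6 of them in a single group, and their differences between groups are a description. Of these, Cyp2b10 is among the 10 in MD + PE against CD + PE, which leaves 9, 5 higher and 4 lower, of 33 other members. These comparisons share groups with each other, so their counts are given side by side and are not independent.

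Over the 33 members tested that reached 1 CPM on both diets, the median log2 fold change was 0.17 in MD + Veh against CD + Veh, 0.14 in CD + PE against CD + Veh, 0.03 in MD + PE against CD + PE and 0.29 in MD + PE against CD + Veh, where the medians over all genes tested lay between -0.019 and 0.006. Groups did not overlap for 13 of the 40 members in MD + Veh against CD + Veh (16.3% of all genes), for 4 in CD + PE against CD + Veh (7.83%), for 9 in MD + PE against CD + PE (6.18%; 8 without Cyp2b10) and for 14 in MD + PE against CD + Veh (18.9%). Each library is 1 mouse, so the p-values measure the spread between these mice.

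**Figure D2:**
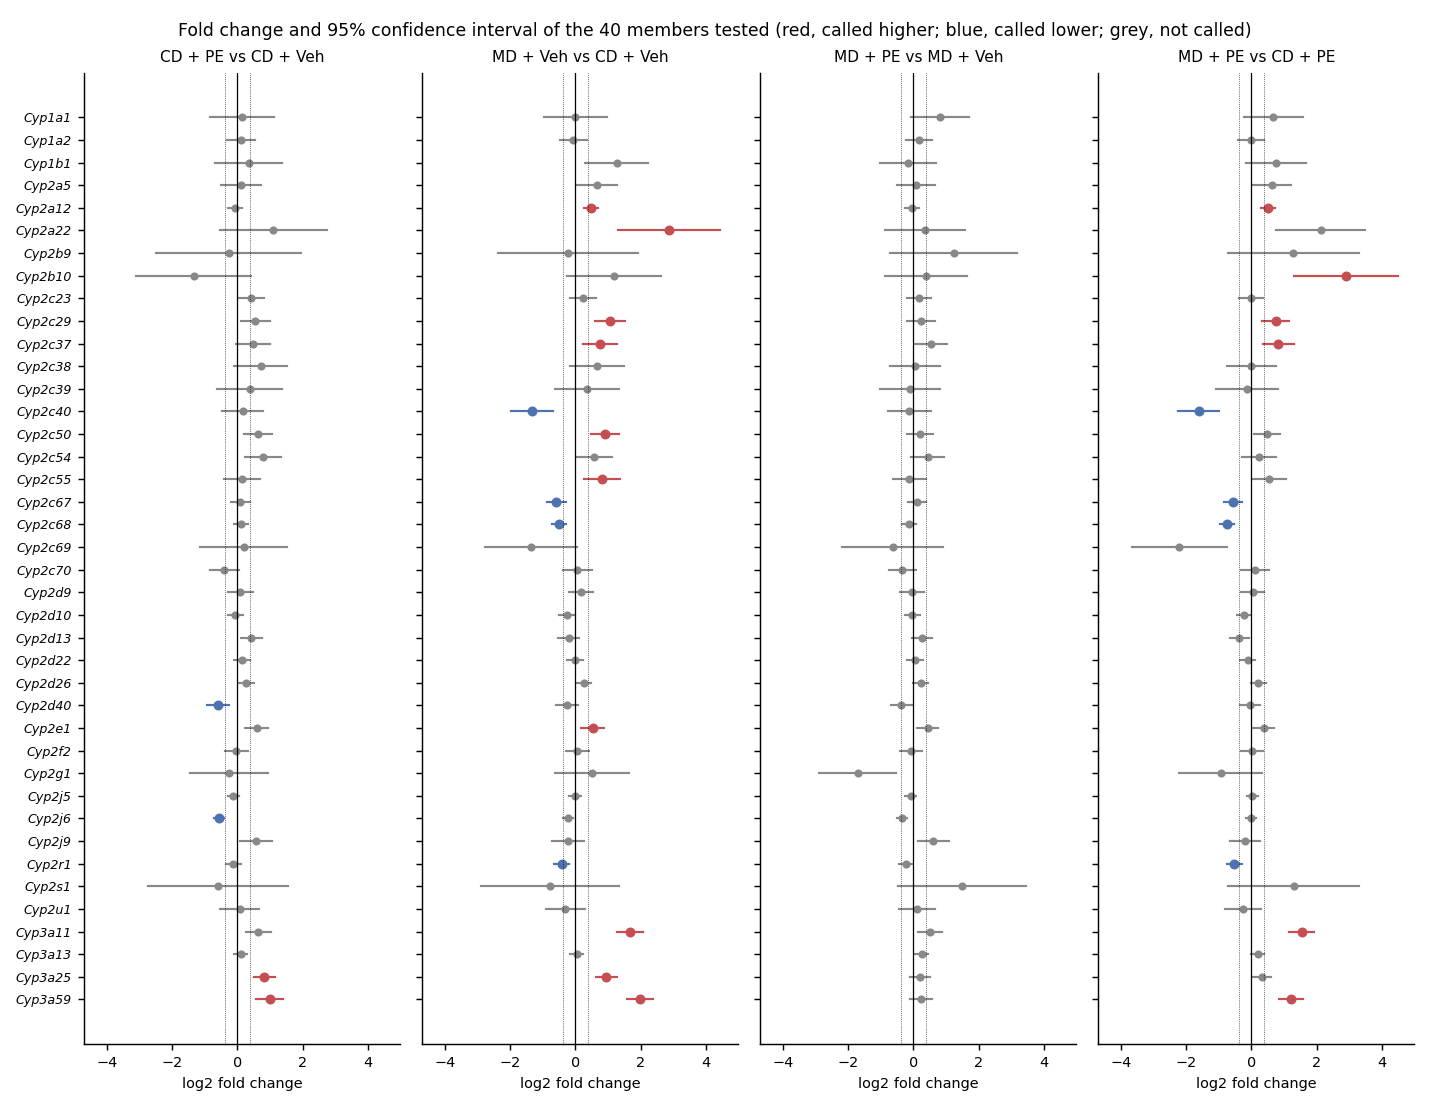
Points are log2 fold changes of the 40 members tested, with 95% confidence intervals as lines, in 4 comparisons, PE against vehicle on CD and on MD and MD against CD with vehicle and with PE (x axis, log2 scale). Red points were called higher, blue points lower and grey points not called, and dotted lines mark 0.38 in each direction. In these comparisons called rises sit in Cyp2a, Cyp2b, Cyp2c, Cyp2e and Cyp3a, called falls in Cyp2c, Cyp2d, Cyp2j and Cyp2r, and no member of Cyp1 was called.

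The count for PE on CD depended on the fit. DESeq2 called 8 members in that comparison, against 5.28% of the 9916 genes to which it gave an adjusted p. A fit with library number as a covariate called 0, against 0.272% of all genes, and leaving out CD + Veh replicate 2 gave 7, against 2.14%. Expression of circadian clock genes also differed between the groups: a score of 4 genes of one arm (such as Bmal1) minus 7 of the other (such as Dbp) ran from -4.73 to -3.15 in CD + Veh and from -3.03 to 0.71 in CD + PE. On MD it ran from -2.05 to -0.02 with vehicle and from -1.90 to -0.09 with PE. With that score as a covariate, 5 members were called in MD + Veh against CD + Veh (2.8% of all genes), all of them higher: Cyp2c50, Cyp2e1, Cyp3a11, Cyp3a25 and Cyp3a59. Markers of liver zones moved with PE on CD as well, where 2.92% of all genes were called. Of 8 pericentral markers 3 rose, Oat (0.99 ± 0.193, adjusted p = 0.00714), Lgr5 (0.77 ± 0.173, adjusted p = 0.0166) and Lect2 (0.44 ± 0.117, adjusted p = 0.0426), and of 8 periportal markers 2 fell, Ass1 (-0.56 ± 0.128, adjusted p = 0.0191) and Gls2 (-0.42 ± 0.117, adjusted p = 0.0497). The part of the zone genes in the calls for PE on CD was not tested.

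The Cyp3a genes, on chromosome 5, encode steroid and drug hydroxylases, and Cyp3a11 is the main PXR-inducible member in mouse liver. The stretches below are shown because Cyp3a11, Cyp3a25 and Cyp3a59 were all called higher in MD + Veh against CD + Veh (under PE, Cyp3a25 was not), and the promoter of Cyp3a11 differs from those of the other two. They lie within the 250 bases before the annotated start in GRCm39, at chr5:145816971-145817029 (minus strand) for Cyp3a11, chr5:145946558-145946624 (minus strand) for Cyp3a25 and chr5:146015871-146015937 (plus strand) for Cyp3a59, each written in the direction of its gene. Capitals mark AGGTCA and AGTTCA on either strand (TGACCT and TGAACT when read on the opposite one). PXR, CAR and related receptors bind hexamers of this kind in pairs. In Cyp3a11 both marks read TGAACT, at positions -142 and -129 from the start. In Cyp3a25 they read AGGTCA at -172 and TGACCT at -151, and in Cyp3a59 AGGTCA at -176 and TGACCT at -155. Whether these spacings and orientations are ones that the receptors bind was not tested.
Cyp3a11: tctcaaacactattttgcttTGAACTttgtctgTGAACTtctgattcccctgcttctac
Cyp3a25: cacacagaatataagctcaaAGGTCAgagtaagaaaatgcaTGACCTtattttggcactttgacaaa
Cyp3a59: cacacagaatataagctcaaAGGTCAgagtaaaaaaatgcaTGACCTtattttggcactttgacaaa

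In an ungapped placement of the 250 bases, Cyp3a25 and Cyp3a59 were identical at 236 of 246 bases (95.9%), and Cyp3a11 and Cyp3a25 at 81 of 247 (32.8%). AGGTCA occurred on either strand in 13.1% of 21751 promoters of this length and in those of 9 of the 41 members. AGTTCA occurred in 12.1% and in 4 members. Such matches are common and describe letters, not binding.

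Cyp3a11 stood at 449, 733, 629 and 776 CPM with CD + Veh, 947, 686, 1303, 903 and 1211 with CD + PE, 1583, 2331, 2226, 2241 and 1916 with MD + Veh, and 2557, 2316, 3281, 3349 and 3164 with MD + PE. Every MD library lay above every CD library. Cyp3a11 rose in MD + Veh against CD + Veh (log2 fold change 1.67 ± 0.193 (SE), adjusted p = 1.22e-05) and in MD + PE against CD + PE (1.54 ± 0.178, adjusted p = 1.43e-05). The difference with PE was 0.64 (95% interval 0.25 to 1.03) on CD, at an adjusted p of 0.0622, and 0.51 (95% interval 0.15 to 0.88) on MD, at an adjusted p of 0.148. Neither was called, although DESeq2 called the first at an adjusted p of 0.0106.

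Cyp3a25 stood at 192, 190.2, 215 and 229 CPM with CD + Veh, 441, 247, 452, 367 and 329.5 with CD + PE, 333, 426, 386, 501 and 338 with MD + Veh, and 444, 509.8, 485, 389.7 and 452 with MD + PE. The 4 CD + Veh libraries lay below every other library. Cyp3a25 rose with PE on CD (log2 fold change 0.83 ± 0.152 (SE), adjusted p = 0.00513) and with MD alone (0.94 ± 0.153, adjusted p = 0.000389). It was not called in MD + PE against CD + PE (0.31 ± 0.141, adjusted p = 0.202), and MD + PE differed from MD + Veh by 0.20 (95% interval -0.10 to 0.49).

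Cyp3a59 stood at 3.79, 3.43, 3.95 and 5.25 CPM with CD + Veh, 8.37, 7.01, 10.4, 6.92 and 8.09 with CD + PE, 13.7, 20.9, 16.9, 19.1 and 10.4 with MD + Veh, and 14.7, 20.01, 19.2, 21.1 and 19.7 with MD + PE. CD + Veh lay below CD + PE without overlap, and CD below MD, where CD + PE replicate 3 and MD + Veh replicate 5 lay side by side. Cyp3a59 rose with PE on CD (log2 fold change 0.99 ± 0.194 (SE), adjusted p = 0.00729), with MD (1.98 ± 0.192, adjusted p = 1.54e-06) and in MD + PE against CD + PE (1.21 ± 0.171, adjusted p = 0.000164). Of the 31-base words in the Cyp3a59 transcripts, 37.7% also occur in Cyp3a25, so the division of reads between them is uncertain.

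Cyp3a13, a member also expressed in gut, stood at 91.2, 91.3, 106 and 94.7 CPM with CD + Veh, 98.5, 87.7, 119, 104 and 104 with CD + PE, 88.8, 92.4, 100.4, 115 and 96.03 with MD + Veh, and 103, 129.8, 125, 102 and 127 with MD + PE. Its groups overlapped, with the highest values in MD + PE. It differed by 0.04 (95% interval -0.16 to 0.24) in MD + Veh and by 0.10 (95% interval -0.10 to 0.31) in CD + PE against CD + Veh, and neither was called. Its difference of 0.29 ± 0.0981, adjusted p = 0.0408 in MD + PE against CD + Veh did not reach the fold limit, and MD + PE against MD + Veh stood at 0.25 ± 0.0922, adjusted p = 0.179.

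**Figure D3:**
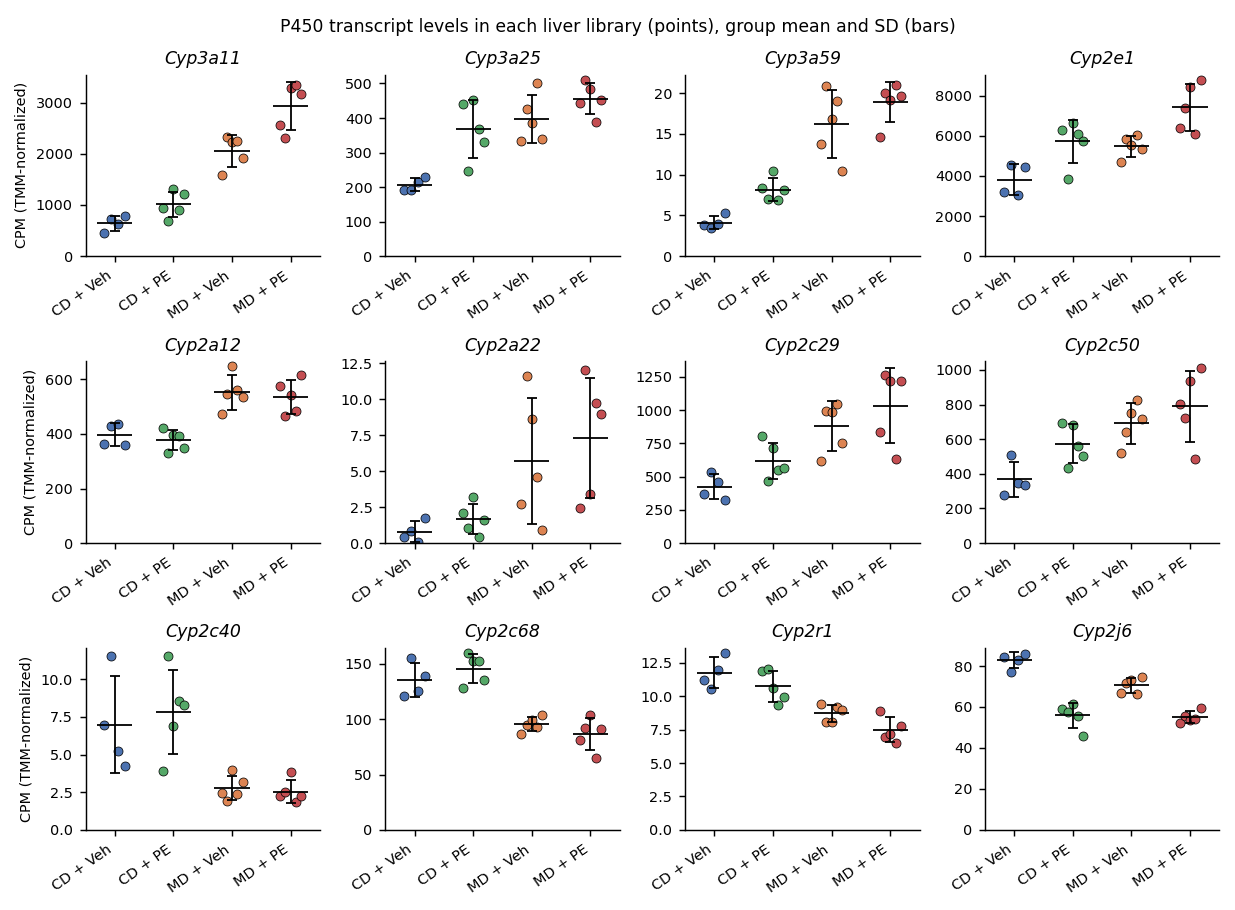
Points give single libraries (TMM-normalized CPM) and bars group means with SD, for members in separate panels, for the 4 mice of CD + Veh and the 5 of each other group. Cyp3a11 is higher in every MD library than in every CD library, and Cyp3a25 is lowest in the 4 CD + Veh libraries.

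The Cyp2c genes, on chromosome 19, encode enzymes that oxidise drugs and arachidonic acid, and they moved in both directions on MD. Of 13 tested, 4 rose in MD + Veh against CD + Veh (Cyp2c29, Cyp2c37, Cyp2c50 and Cyp2c55) and 3 fell (Cyp2c40, Cyp2c67 and Cyp2c68). The stretches below are shown because a site of the type bound by the hepatocyte factor HNF4A, CAAAGTCCA, lies before the 3 that fell, and near forms before 3 of the 4 that rose. No such site was placed before Cyp2c55. Another near form, CAAAGTTTA, was placed before Cyp2c38, which was not called (0.665 (95% interval -0.16 to 1.49)). The comparison was chosen with the values known. Coordinates (GRCm39) are chr19:39801272-39801327 (minus strand) for Cyp2c40, chr19:39637580-39637635 (minus strand) for Cyp2c67, chr19:39729591-39729646 (minus strand) for Cyp2c68, chr19:39875257-39875312 (minus strand) for Cyp2c69, chr19:39275396-39275451 (plus strand) for Cyp2c29, chr19:39980728-39980783 (plus strand) for Cyp2c37, chr19:40077985-40078040 (plus strand) for Cyp2c50 and chr19:40062356-40062411 (minus strand) for Cyp2c54. Capitals mark the 9-base site. First come the 3 that fell and Cyp2c69, which edgeR did not call (-1.38 (95% interval -2.79 to 0.03)). Cyp2c69 is a member only through its CD means, so its difference is a description. Then come 3 that rose and Cyp2c54, which was not called either (0.58 (95% interval 0.03 to 1.13)).
Cyp2c40: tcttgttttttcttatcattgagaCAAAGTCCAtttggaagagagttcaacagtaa
Cyp2c67: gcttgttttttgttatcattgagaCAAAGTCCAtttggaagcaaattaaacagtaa
Cyp2c68: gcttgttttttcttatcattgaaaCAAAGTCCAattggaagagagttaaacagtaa
Cyp2c69: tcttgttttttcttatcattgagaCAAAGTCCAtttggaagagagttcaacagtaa
Cyp2c29: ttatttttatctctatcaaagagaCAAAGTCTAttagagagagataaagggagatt
Cyp2c37: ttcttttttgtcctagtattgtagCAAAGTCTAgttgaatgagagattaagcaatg
Cyp2c50: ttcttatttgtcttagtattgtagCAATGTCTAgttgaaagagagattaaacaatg
Cyp2c54: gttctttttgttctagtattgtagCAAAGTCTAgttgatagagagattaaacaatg

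Counted from 1 at the 5′ end of the site in Cyp2c40, Cyp2c29, Cyp2c37 and Cyp2c54 differ by C8T, and Cyp2c50 by A4T and C8T. Over 36 bases around the site, Cyp2c69 matched Cyp2c40 at 36, Cyp2c68 at 34 and Cyp2c67 at 32. Over the whole 250 bases, Cyp2c40 and Cyp2c69 were identical at 247 (98.8%). Their shared site is therefore not a set of separate cases. CAAAGTCCA occurred on either strand in 81 of 21751 promoters (0.372%) and in 6 members, Cyp2c40, Cyp2c65, Cyp2c67, Cyp2c68, Cyp2c69 and Cyp2c70. Cyp2c70, which hydroxylates bile acids in mice, differed by 0.05 (95% interval -0.40 to 0.50) in MD + Veh against CD + Veh and was not called. CAAAGTCTA occurred in 61 promoters (0.28%) and in 5 members, Cyp2b9, Cyp2c29, Cyp2c37, Cyp2c39 and Cyp2c54. Cyp2b9 and Cyp2c39 were not called, at -0.22 (95% interval -2.36 to 1.92) and 0.35 (95% interval -0.64 to 1.33).

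Cyp2c29 stood at 367, 536, 461 and 326 CPM with CD + Veh, 804, 469, 716, 546 and 562 with CD + PE, 618, 995, 988, 1049 and 751 with MD + Veh, and 836, 1261, 1219, 635 and 1220 with MD + PE. MD + Veh lay above CD + Veh without overlap. Cyp2c29 rose in MD + Veh against CD + Veh (log2 fold change 1.06 ± 0.219 (SE), adjusted p = 0.00282) and in MD + PE against CD + PE (0.74 ± 0.203, adjusted p = 0.0329). Cyp2c50 stood at 278, 511, 348 and 334 CPM with CD + Veh, 692, 436, 679, 561 and 501 with CD + PE, 523, 639, 750.3, 828 and 714 with MD + Veh, and 801, 722, 934, 486 and 1012 with MD + PE. It rose in MD + Veh (0.91 ± 0.206, adjusted p = 0.00563) and stood 2.15-fold higher in MD + PE (adjusted p = 0.000817), both against CD + Veh. It was not called in MD + PE against CD + PE (0.46 ± 0.191, adjusted p = 0.158).

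Cyp2c37 stood at 51.8, 114, 74.4 and 75.7 CPM with CD + Veh, 113, 87.4, 141, 112 and 92.8 with CD + PE, 93.1, 121, 139.7, 166 and 147 with MD + Veh, and 174, 177, 263, 103 and 251 with MD + PE. CD + Veh replicate 2 reached into the MD + Veh range. It was called in MD + Veh against CD + Veh (0.76 ± 0.247, adjusted p = 0.0467), a call kept in 7 of the 19 fits that left out 1 library, and in MD + PE against CD + PE (0.82 ± 0.231, adjusted p = 0.0359). Cyp2c55, a CAR and PXR target, stood at 1.68, 2.43, 2.35 and 3.09 CPM with CD + Veh, 3.399, 2.89, 2.38, 1.805 and 2.56 with CD + PE, 3.797, 4.39, 5.92, 4.25 and 2.47 with MD + Veh, and 2.92, 4.96, 2.52, 3.91 and 4.75 with MD + PE. Its groups overlapped, and its call in MD + Veh against CD + Veh (0.81 ± 0.261, adjusted p = 0.0456) was kept in 10 of the 19 such fits. In MD + PE against CD + PE it was not called (0.54 ± 0.249, adjusted p = 0.212). Cyp2c54 was called by edgeR in MD + PE against CD + Veh (1.01 ± 0.267, adjusted p = 0.0107), and without CD + Veh replicate 2 it was also called in CD + PE (adjusted p = 0.0447) and in MD + Veh (adjusted p = 0.0476) against the same group.

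Cyp2c40 stood at 6.96, 11.5, 5.22 and 4.24 CPM with CD + Veh, 3.896, 11.6, 6.88, 8.52 and 8.29 with CD + PE, 2.47, 1.92, 3.95, 2.395 and 3.16 with MD + Veh, and 2.27, 2.52, 3.82, 1.85 and 2.24 with MD + PE. Every MD + Veh library lay below every CD + Veh library. Cyp2c40 fell in MD + Veh against CD + Veh (log2 fold change -1.33 ± 0.311 (SE), adjusted p = 0.00714) and in MD + PE against CD + PE (-1.62 ± 0.306, adjusted p = 0.00263). Cyp2c68 stood at 121, 155, 126 and 139 CPM with CD + Veh, 128, 159, 153, 152 and 135 with CD + PE, 87.1, 94.5, 98.9, 92.6 and 104 with MD + Veh, and 81.1, 92.5, 103, 64.99 and 91.1 with MD + PE. No MD library reached a CD library. Cyp2c68 fell in both diet comparisons (-0.50 ± 0.108, adjusted p = 0.00387 with vehicle, -0.75 ± 0.103, adjusted p = 0.000123 with PE).

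Cyp2c67 stood at 267, 246, 275 and 201 CPM with CD + Veh, 240.2, 302, 229.9, 315 and 226 with CD + PE, 149, 133, 193, 167 and 183 with MD + Veh, and 169.8, 188, 192, 137 and 204 with MD + PE. MD + Veh lay below CD + Veh and MD + PE below CD + PE without overlap, and MD + PE replicate 5 lay just above CD + Veh replicate 4. Cyp2c67 fell with MD under vehicle (-0.58 ± 0.136, adjusted p = 0.00688) and under PE (-0.56 ± 0.129, adjusted p = 0.0125). Cyp2c40, Cyp2c67, Cyp2c68 and Cyp2c69 share 52 to 64.6% of their 31-base words with other genes, so reads may have been divided among them by estimate. In CD + PE against CD + Veh, edgeR called 0 of the 13 Cyp2c members, whose log2 fold changes ran from -0.40 to 0.79, and DESeq2 called Cyp2c50 (adjusted p = 0.0246) and Cyp2c54 (adjusted p = 0.0325) higher.

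**Figure D4:**
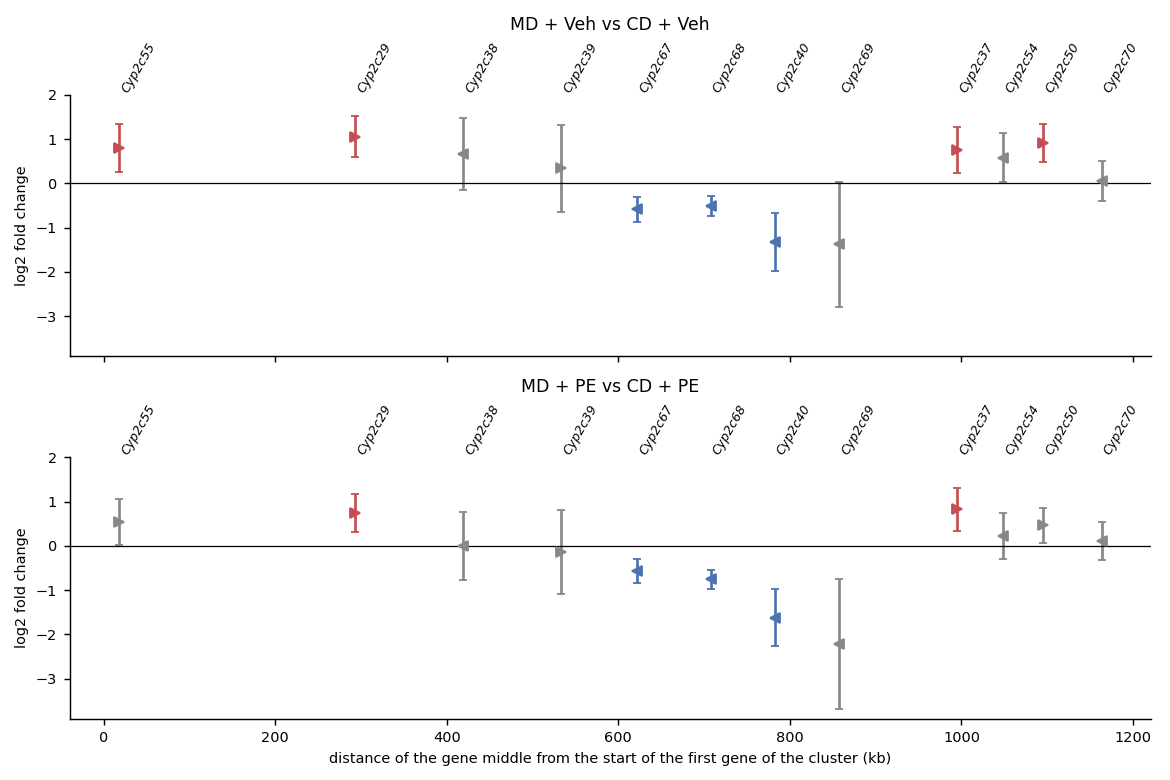
Log2 fold changes (y axis) with 95% confidence intervals are set out by distance along the Cyp2c cluster of chromosome 19 (x axis, kb) for 12 members, with Cyp2c23 and Cyp2c65 not drawn, in MD + Veh against CD + Veh (top) and MD + PE against CD + PE (bottom). Triangles point along the strand, red was called higher, blue lower and grey not called. Cyp2c29, Cyp2c37, Cyp2c50 and Cyp2c55 were called higher and Cyp2c40, Cyp2c67 and Cyp2c68 lower in MD + Veh against CD + Veh.

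Cyp2e1 stood at 3203, 4540, 3063 and 4433 CPM with CD + Veh, 6260, 3857, 6627, 6091 and 5759 with CD + PE, 4696, 5812, 5541, 6038 and 5317 with MD + Veh, and 6380, 7383, 8417, 6103 and 8760 with MD + PE. The MD + PE libraries all lay above the MD + Veh libraries, and CD + PE replicate 2 lay among those of CD + Veh. Cyp2e1 rose in MD + Veh against CD + Veh (log2 fold change 0.53 ± 0.163 (SE), adjusted p = 0.0374) and in MD + PE against CD + Veh (0.96 ± 0.164, adjusted p = 0.000344). In MD + PE against CD + PE it was not called (0.37 ± 0.152, adjusted p = 0.152), except with the clock score as a covariate (adjusted p = 0.0387). With PE the difference was 0.59 (95% interval 0.24 to 0.93) on CD (adjusted p = 0.0505) and 0.43 (95% interval 0.12 to 0.75) on MD (adjusted p = 0.159), and edgeR called neither. On CD, Cyp2e1 was called by DESeq2 (adjusted p = 0.00532), and by edgeR with a stricter filter on low counts (0.0414), robust dispersion (0.0433) or the clock score as a covariate (0.02).

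Of the Cyp2a genes, Cyp2a12, a steroid hydroxylase, stood at 363, 430.3, 436 and 359.7 CPM with CD + Veh, 422, 331, 396, 394 and 348 with CD + PE, 472, 546, 650.1, 559.6 and 534 with MD + Veh, and 575, 466, 545, 484 and 616 with MD + PE. MD + Veh lay above CD + Veh without overlap. Cyp2a12 rose with MD under both gavages (0.48 ± 0.105, adjusted p = 0.00462 and 0.51 ± 0.0987, adjusted p = 0.00346). Cyp2a22 stood at 0.435, 0.858, 0.06699 and 1.75 CPM with CD + Veh, 2.07, 1.05, 3.17, 0.401 and 1.58 with CD + PE, 2.72, 11.6, 8.65, 4.56 and 0.925 with MD + Veh, and 2.43, 12.02, 3.38, 9.73 and 8.97 with MD + PE. Its MD libraries ranged widely, and the lowest, MD + Veh replicate 5, lay within the CD range. Cyp2a22 rose in MD + Veh against CD + Veh (2.87 ± 0.752, adjusted p = 0.0148), and MD + PE against CD + PE missed the threshold (2.12 ± 0.653, adjusted p = 0.0557), which DESeq2 passed (adjusted p = 0.0148). There edgeR also passed it with a stricter filter on low counts (0.0469), 2 groups only (0.0368), thinning to equal depth (0.0355) or library number as a covariate (0.0428). Cyp2a12 and Cyp2a22 share 34.5 and 27.9% of their 31-base words.

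Cyp2a5, which oxidises coumarin and nicotine, stood at 205, 464, 179.8 and 339.7 CPM with CD + Veh, 384, 157, 363, 336 and 359 with CD + PE, 318, 517, 501, 579.8 and 418 with MD + Veh, and 386, 419, 444, 401 and 832 with MD + PE. MD + PE lay just above CD + PE without overlap (at least 386 against at most 384 CPM), and its other groups overlapped. Cyp2a5 was not called with all 19 libraries and no covariate. In MD + PE against CD + Veh it differed by 0.74 (95% interval 0.11 to 1.37), and was called with the clock score as a covariate (1.51 ± 0.384, adjusted p = 0.0182) and without CD + Veh replicate 2 (1.04 ± 0.308, adjusted p = 0.027). Cyp2b10, the standard CAR target, stood at 0.435, 0.429, 0.06699 and 1.34 CPM with CD + Veh, 0.0829, 0.0876, 0.529, 0 and 0.395 with CD + PE, 0.823, 0.433, 2.65, 2.24 and 0.386 with MD + Veh, and 0.811, 1.34, 2.34, 1.58 and 2.42 with MD + PE. Its counts were low in every library, and its MD and CD ranges with vehicle overlapped. Between CD + PE and MD + PE the ranges did not overlap. Cyp2b10 is a member only through its MD means, so the difference of 2.90 (95% interval 1.31 to 4.49) there is a description, and the call was lost on leaving out CD + PE replicate 1, CD + PE replicate 4 or MD + PE replicate 5.

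In family 1, no member was called with all 19 libraries and no covariate. Cyp1a2, which oxidises caffeine and aromatic amines, stood at 315, 476, 332 and 358 CPM with CD + Veh, 475, 330.3, 358, 516 and 317 with CD + PE, 346, 276, 348, 342 and 453 with MD + Veh, and 450.1, 328, 447, 242 and 515 with MD + PE. Its groups overlapped, and it differed by 0.11 (95% interval -0.31 to 0.53) with PE on CD and -0.07 (95% interval -0.49 to 0.35) with MD. Cyp1a1, the most inducible AHR target, stood at 0.435, 0.644, 0.268 and 0.942 CPM with CD + Veh, 0.746, 0.175, 0.353, 1.003 and 0.888 with CD + PE, 0.443, 0.557, 0.545, 1.005 and 0.308 with MD + Veh, and 0.7302, 1.18, 1.48, 0.754 and 0.897 with MD + PE. It was at or below 1.48 CPM in every library, and its groups overlapped. Cyp1b1 differed by 1.26 (95% interval 0.30 to 2.23) in MD + Veh against CD + Veh, and Cyp1a1 by 0.80 (95% interval -0.14 to 1.75) in MD + PE against CD + Veh. Each is a member only through the mean of the MD group in that comparison, so these are descriptions, also where another fit passed the threshold (Cyp1b1 without CD + Veh replicate 1, Cyp1a1 with the clock score as a covariate). GCGTG, the core letters of the AHR response element, occurred in 31.2% of promoters and 4 times before Cyp1a1.

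Cyp2j6, an epoxygenase of arachidonic acid, stood at 84.6, 77.3, 83.1 and 86.1 CPM with CD + Veh, 59.02, 57.5, 61.4, 55.5 and 45.97 with CD + PE, 66.6, 71.8, 73.2, 66.3 and 74.7 with MD + Veh, and 52.1, 55.8, 53.8, 54.02 and 59.4 with MD + PE. PE libraries lay below vehicle libraries on both diets without overlap. Cyp2j6 fell with PE on CD (log2 fold change -0.57 ± 0.0737 (SE), adjusted p = 0.000664). On MD the difference of -0.36 ± 0.0699, adjusted p = 0.014 did not reach the fold limit. Cyp2d40 stood at 82.5, 61.4, 89.7 and 60.3 CPM with CD + Veh, 59.2, 52.7, 48.2, 41.4 and 42.7 with CD + PE, 50.6, 52.4, 60.5, 62.05 and 80.9 with MD + Veh, and 56.3, 47.2, 46.4, 34.97 and 51.8 with MD + PE. CD + PE lay below CD + Veh without overlap. Its call with PE on CD (-0.59 ± 0.159, adjusted p = 0.0444) was kept in 7 of the 19 fits that left out 1 library. With library number as a covariate, Cyp2j6 had an adjusted p of 0.0649 in that comparison.

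Cyp2r1, the vitamin D 25-hydroxylase, stood at 11.2, 10.5, 11.99 and 13.2 CPM with CD + Veh, 11.8, 12, 10.6, 9.32 and 9.96 with CD + PE, 9.43, 8.04, 8.102, 9.195 and 8.95 with MD + Veh, and 8.93, 6.98, 7.204, 6.51 and 7.8 with MD + PE. MD + Veh lay below CD + Veh without overlap. Cyp2r1 fell in MD + Veh against CD + Veh (-0.43 ± 0.107, adjusted p = 0.0115) and in MD + PE against CD + PE (-0.52 ± 0.105, adjusted p = 0.00414). Cyp2f2, a periportal enzyme that activates naphthalene, stood at 866, 996, 1361 and 758 CPM with CD + Veh, 973, 923, 886, 1134 and 924 with CD + PE, 946, 799, 1160, 1070 and 1184 with MD + Veh, and 1187, 707, 1166, 819 and 1044 with MD + PE. Its groups overlapped in full, with 0.05 (95% interval -0.30 to 0.41) for MD and -0.04 (95% interval -0.40 to 0.32) for PE on CD. Of the 6 Cyp2d members, Cyp2d26 was called higher and Cyp2d40 lower in MD + PE against CD + Veh.

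Among members that edgeR called in no comparison with all 19 libraries and no covariate, Cyp2j5, a renal and hepatic epoxygenase and the most abundant Cyp2j, stood at 532, 539.5, 538 and 556 CPM with CD + Veh, 537, 443, 531, 506 and 473 with CD + PE, 472, 516, 566, 573 and 546 with MD + Veh, and 462, 518, 559.8, 432 and 564 with MD + PE. Its groups overlapped, with a difference of -0.02 (95% interval -0.20 to 0.16) for MD with vehicle. Cyp2u1, which hydroxylates fatty acids, stood at 61.3, 39.4, 63.4 and 30.2 CPM with CD + Veh, 93.8, 40.99, 42.2, 47.03 and 29.7 with CD + PE, 42.6, 26.5, 41.3, 42.96 and 43.3 with MD + Veh, and 53.1, 42.8, 47.7, 27.1 and 42.6 with MD + PE. It ranged as widely within groups as between them. Cyp2d9, a male-predominant steroid hydroxylase and the most abundant Cyp2d by its mean over all libraries, though below Cyp2d26 in MD + PE, stood at 859.9, 859, 977 and 758 CPM with CD + Veh, 1175, 674, 878, 1155 and 724 with CD + PE, 861, 807, 899.9, 1014 and 1283 with MD + Veh, and 1100, 807, 1100, 680 and 1033 with MD + PE. Its groups overlapped, with a difference of 0.17 (95% interval -0.21 to 0.55) for MD with vehicle. Cyp1b1, an AHR target outside hepatocytes as well, stood at 0.745, 0.286, 0.201 and 0.471 CPM with CD + Veh, 0.249, 1.05, 0.176, 0.602 and 0.691 with CD + PE, 1.77, 1.11, 0.613, 0.927 and 0.771 with MD + Veh, and 0.7302, 0.925, 1.04, 1.23 and 0.717 with MD + PE. Its values were low and its groups overlapped. Cyp2b9, a female-predominant gene, was at or below 2.33 CPM, and Cyp2g1, an olfactory enzyme, at or below 1.62 CPM in every library.

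The remaining members are given by their range over the 19 libraries. Among Cyp2c, Cyp2c23 ran from 203 to 442 CPM, Cyp2c38 from 12.05 to 62.15 CPM, Cyp2c39 from 0.603 to 2.47 CPM, Cyp2c54 from 67.2 to 262 CPM, Cyp2c69 from 0.0686 to 4.29 CPM and Cyp2c70 from 190.1 to 529 CPM. Of these, edgeR called Cyp2c54 alone. Cyp2c69 is a member only through its CD means, so its lower values on MD, which DESeq2 and some fits without 1 library called, are a description. Among Cyp2d, Cyp2d10 ran from 372 to 626 CPM, Cyp2d13 from 143 to 304 CPM, Cyp2d22 from 172 to 264 CPM and Cyp2d26 from 580.4 to 1067 CPM. Cyp2j9 ran from 2.85 to 11.02 CPM and differed by 0.58 (95% interval 0.08 to 1.07) with PE on CD and 0.61 (95% interval 0.14 to 1.08) with PE on MD, neither called.

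In MD + PE against MD + Veh, 0 members were called, against 1.08% of all genes called. At an unadjusted p below 0.05 there were 8 of the 33 members that reached 1 CPM on both diets, against 15.7% of all genes, and DESeq2 called 0, against 2.15% of the genes to which it gave an adjusted p. A further member under that p, Cyp2g1, met the rule only through MD + Veh. Groups did not overlap for 2 members, Cyp2e1 and Cyp2j6, against 3.57% of all genes. The test of whether PE acted differently on the 2 diets called 0 members by edgeR and 0 by DESeq2, against 0.00735% of all genes by edgeR and 0.601% by DESeq2. At an unadjusted p below 0.05 there were 2 of the 40, against 8.77% of all genes: Cyp3a25 at -0.63 (95% interval -1.06 to -0.20) with an adjusted p of 0.335 and Cyp3a59 at -0.77 (95% interval -1.30 to -0.24) with an adjusted p of 0.337.

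Of 8 genes for electron transfer and haem supply, 3 rose and 1 fell in MD + Veh against CD + Veh, where 10.4% of all genes were called. Cyb5a, cytochrome b5, rose (0.63 ± 0.122, adjusted p = 0.00161), Cyb5r3, its reductase, fell (-0.75 ± 0.0832, adjusted p = 7.57e-06), and Por differed by -0.04 ± 0.284, adjusted p = 0.948 without being called. Of 9 sensors and partners tested, 1 fell in that comparison, Tiparp, an AHR target (-1.01 ± 0.172, adjusted p = 0.00062). That count is near the 10.4% of all genes called. The values for Nr1i2 (-0.22 ± 0.132, adjusted p = 0.282) and Nr1i3 (0.23 ± 0.269, adjusted p = 0.626) were not called. With PE on CD, where 2.92% of all genes were called, Cyb5a rose (0.63 ± 0.122, adjusted p = 0.00716) and Cyb5r3 fell (-0.41 ± 0.0832, adjusted p = 0.00935). Tiparp fell there as well (-0.684 ± 0.173, adjusted p = 0.0319). With PE on MD, Cyb5b (-0.43 ± 0.0775, adjusted p = 0.00816) and Cyb5r3 (-0.586 ± 0.0792, adjusted p = 0.000888) fell, against 1.08% of all genes called.

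Of 11 CAR and PXR targets outside the P450s, 4 rose and 0 fell in MD + Veh against CD + Veh (median log2 fold change 0.25, against -0.004 over all genes), and 2 rose in CD + PE (0.24, against 0.006). Over all genes, 10.4% were called in the first comparison and 2.92% in the second. Gsta2, a glutathione transferase, rose on MD (2.13 ± 0.264, adjusted p = 2.66e-05), as did Abcc3, a transporter of conjugates (1.22 ± 0.196, adjusted p = 0.000375). Slco1a4 (-1.035 ± 0.392, adjusted p = 0.0847), Abcb1a (-0.674 ± 0.278, adjusted p = 0.115) and Gadd45b (-0.733 ± 0.466, adjusted p = 0.317) lay lower on MD and were not called. Sult1e1, which rose on MD (4.71 ± 0.698, adjusted p = 0.000162), fell in MD + PE against MD + Veh (-2.245 ± 0.513, adjusted p = 0.034). It was at or below 0.143 CPM in every CD library, so its fold change on MD starts from near 0. Its mean was 2.01 CPM in MD + Veh and 0.422 CPM in MD + PE. Of 14 other phase I enzymes, 3 rose and 1 fell on MD, with Ephx1, the microsomal epoxide hydrolase, at 1.38 ± 0.0904, adjusted p = 3.52e-08 and Fmo4 at -1.32 ± 0.255, adjusted p = 0.00161. Of the same enzymes, Ephx1 (0.885 ± 0.0892, adjusted p = 8.19e-05) and Aox1 (0.776 ± 0.153, adjusted p = 0.00735) rose with PE on CD. Of 5 AHR battery genes tested outside the P450s, 0 rose and 1 fell on MD, again Tiparp, which also fell with PE on CD. Their median log2 fold change on MD was 0.37, and Ugt1a6b (0.373 ± 0.0964, adjusted p = 0.0138) missed only the fold limit. In MD + PE against CD + Veh, 2 of them rose and 1 fell, where 14.6% of all genes were called. Of 8 pericentral markers 3 rose, among them Rhbg (1.24 ± 0.294, adjusted p = 0.00769), and of 8 periportal markers 4 fell, among them Sds (-0.67 ± 0.211, adjusted p = 0.0408).

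Markers of cell types also moved with diet, where 10.4% of all genes were called in MD + Veh against CD + Veh. Of 6 hepatocyte markers, 3 fell in MD + Veh against CD + Veh, Alb (-0.48 ± 0.146, adjusted p = 0.0324), Apoa1 (-0.42 ± 0.104, adjusted p = 0.0106) and Fgb (-0.74 ± 0.092, adjusted p = 2.75e-05). Ttr (-0.374 ± 0.099, adjusted p = 0.0159) did not reach the fold limit. Serpina1c (-0.146 ± 0.15, adjusted p = 0.561) and Apob (0.167 ± 0.0874, adjusted p = 0.216) were not called. All 8 skeletal muscle markers rose in that comparison, with most of their counts in MD + Veh replicate 1. None of 7 Kupffer cell, 7 endothelial, 7 stellate cell and 6 duct markers was called, and 1 of 2 intestinal markers tested rose, Fabp2. Fabp2 ran from 42.5 to 121 CPM over all libraries. It was not highest in MD + PE replicate 2 (117.7 CPM), the only library with Cdx2. Of 9 hepatocyte transcription factors 1 fell, Nr1h4, the bile acid receptor (-0.53 ± 0.0976, adjusted p = 0.00108), a count near that share of all genes. Of 9 acute phase genes, 2 rose and 3 fell. Among growth hormone regulators 1 of 7 rose, Stat5a (0.81 ± 0.14, adjusted p = 0.000658), as did 1 of 10 male-pattern genes, Elovl3 (1.78 ± 0.312, adjusted p = 0.000761), and 0 of 2 female-pattern genes. The counts for transcription factors, growth hormone regulators and male-pattern genes lie near the 10.4% of all genes called. The shares among acute phase genes and hepatocyte and muscle markers were larger. No list was tested as a set. With PE on CD, Stat5a (0.64 ± 0.142, adjusted p = 0.0159) and Elovl3 (1.26 ± 0.307, adjusted p = 0.0261) also rose, and none of the hepatocyte, Kupffer cell, endothelial, stellate cell, duct, intestinal and muscle markers was called, the muscle markers at a median of 2.87. The transcription factor gene Nr2f2 rose there too (0.46 ± 0.123, adjusted p = 0.0439), against 2.92% of all genes called.

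With PE on both diets, in MD + PE against CD + PE, 4 of the 6 hepatocyte markers fell, Alb (-0.62 ± 0.139, adjusted p = 0.00981), Apoa1 (-0.48 ± 0.0982, adjusted p = 0.00528), Ttr (-0.52 ± 0.0939, adjusted p = 0.00191) and Fgb (-0.52 ± 0.0873, adjusted p = 0.000917). Of 8 periportal markers 2 fell there, Ass1 and Gls2, 0 of 8 pericentral markers were called, and 1 stellate cell marker, Reln (0.53 ± 0.153, adjusted p = 0.0406), and the intestinal marker Fabp2 (0.72 ± 0.111, adjusted p = 0.000439) rose. Relative to CD + Veh, in MD + PE the same 4 hepatocyte markers fell, as did 5 periportal ones (Sds, Ass1, Cps1, Gls2 and Cdh1), while 4 pericentral markers (Oat, Lgr5, Rhbg and Lect2), the stellate cell markers Lrat and Reln, the endothelial marker Stab2 and Fabp2 rose. With PE on MD, Ass1 and Gls2 fell, and so did 4 of the 8 muscle markers, whose counts lay mostly in MD + Veh replicate 1. Over all genes, 4.6% were called in MD + PE against CD + PE and 14.6% in MD + PE against CD + Veh. With PE on MD the share was 1.08%. The part of these marker changes in the P450 results was not tested.

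Cyp2c65 and Cyp2s1, which are expressed in gut epithelium, were high in 1 library. Cyp2c65 stood at 0, 0.143, 0.06699 and 0 CPM with CD + Veh, 0, 0, 0, 0.301 and 0 with CD + PE, 0, 0, 0, 0.0773 and 0 with MD + Veh, and 0, 6.64, 0.2604, 0 and 0 with MD + PE. Cyp2s1 stood at 0.124, 1.93, 0.536 and 0.135 CPM with CD + Veh, 0.497, 0, 0.529, 0.902 and 0.296 with CD + PE, 0.759, 0.742, 0.0681, 0.154 and 0.154 with MD + Veh, and 0.243, 4.204, 0.694, 0.206 and 0.179 with MD + PE. Both peaked in MD + PE replicate 2. That library also held Vil1 at 22.6 CPM and Krt19 at 58.6 CPM, against at most 0.644 and 8.15 CPM elsewhere. Without it, 38 genes met the rule for members.

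**Figure D5:**
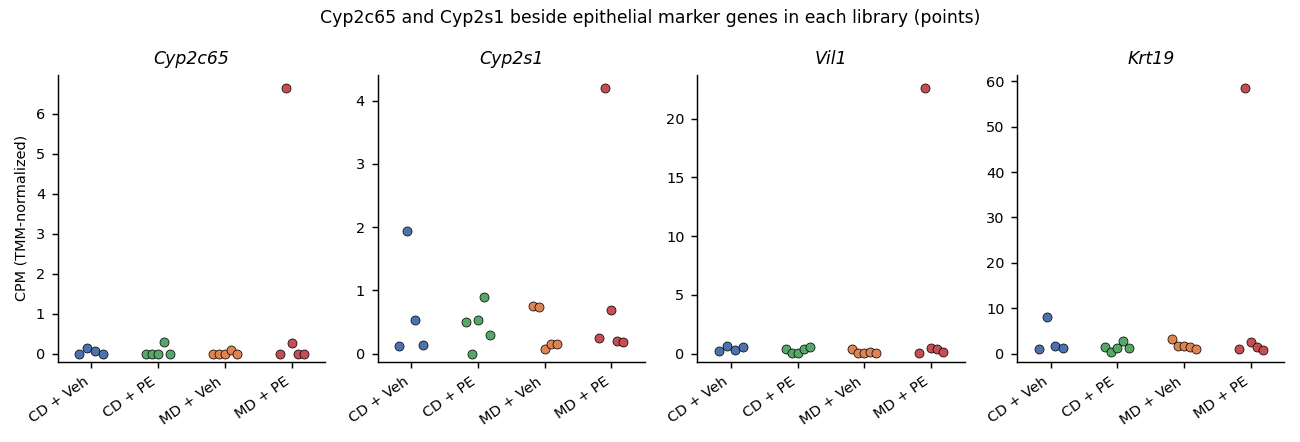
Points give Cyp2c65, Cyp2s1 and the epithelial markers Vil1 and Krt19 in the 19 libraries (CPM, linear axes from 0). MD + PE replicate 2 stands above the other libraries for Cyp2c65, at 6.64 CPM, and for Cyp2s1, at 4.20 CPM.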

How the data were processed

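RNA from 19 livers was sequenced with a stranded poly(A) kit. The deposited estimated counts were made by the authors with fastp 0.23.4 and Salmon 1.10.3 against a GENCODE GRCm39 transcriptome and summed per gene, and are whole numbers in the deposited table. The GENCODE release is not given in the sources used here. Salmon divides reads between similar transcripts by estimate, so close paralogs are uncertain. Counts were tested with edgeR 4.0.16 (R 4.3.3, limma 3.58.1): TMM, a filter on low counts by group, the quasi-likelihood test in 1 fit of all 19 libraries, and Benjamini-Hochberg adjustment over the 13597 genes tested. DESeq2 1.42.0 was an alternative. SE is the log2 fold change over the root of F. CPM per kb uses the canonical transcript length. Promoters are the 250 bases before the canonical start. The fit was checked on simulated counts.

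Other settings were RLE scaling, other filters, robust dispersion, 2 groups only, thinning to equal depth, covariates for library number and clock score, a replicate block, and leaving out each library. Leaving out MD + Veh replicate 1 and MD + PE replicate 2 together was chosen after seeing the data. Members, gene lists and tests were chosen with earlier results of these data known. Values per library are given for the called members with the largest changes, the most abundant member of each subfamily but Cyp2g and the inducible genes, and other members by range. Depth per library was 10398820 to 15456729 counts, which limits genes near 1 CPM.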

Additional observations from a re-analysis of the deposited data

Results flagged for a closer look

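Within groups of 4 or 5 libraries, 9 of 164 member and group combinations held a library set apart by Dixon's test, where chance flags about 1 in 20. Cyp2a5 stood at 157 CPM in CD + PE replicate 2, against 335.6 to 383.7 CPM in the other libraries of that group, and at 832 CPM in MD + PE replicate 5, against 386 to 444.4 CPM. Cyp2u1 stood at 93.8 CPM in CD + PE replicate 1, against 29.69 to 47.03 CPM, and at 26.5 CPM in MD + Veh replicate 2, against 41.3 to 43.3 CPM. Cyp2b9 stood at 1.70 CPM in MD + Veh replicate 3. Cyp2s1 stood at 4.20 CPM and Cyp2c65 at 6.64 CPM in MD + PE replicate 2. Cyp2c65 was also set apart at 0.301 CPM in CD + PE replicate 4 and at 0.0773 CPM in MD + Veh replicate 4, where the other libraries of the group were at 0. These were 3 counts and 1 count. A lone value above 0 is always set apart there, whatever its size, so the rate of 1 in 20 does not apply.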

How the results depend on the processing

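No call changed sign under any alternative. In CD + PE against CD + Veh, where 4 members were called, DESeq2 called 8, the covariate for library number left 0, and leaving out 1 library gave 3 to 7, with 7 without CD + Veh replicate 2. In MD + Veh against CD + Veh, where 14 were called, the clock score as a covariate left 5 and leaving out 1 library gave 11 to 14. For MD with PE, where 10 were called, leaving out 1 library gave 7 to 11. In MD + PE against CD + Veh, where 17 were called, the covariate for library number left 8 and leaving out 1 library gave 16 to 19. In MD + PE against MD + Veh, dropping the minimum fold change gave 1 call (Cyp2j6), and leaving out 1 library gave 0 to 1, with 1 without MD + PE replicate 5. The test of PE by diet gave 0 throughout. With 1 library left out, 1.55 to 3.14% of all genes were called for PE on CD and 7.37 to 12.1% for MD with vehicle. For MD with PE the share was 3.73 to 7.25%, and for MD + PE against CD + Veh 11.7 to 16%. For PE on MD it was 0.411 to 1.79%, and for PE by diet 0 to 0.0217%. Library number as a covariate left 6.79% in MD + PE against CD + Veh. Dropping the minimum fold change gave 1.52% for PE on MD. Leaving out MD + PE replicate 2 left 38 of the 41 members, and the other single libraries 40 or 41. Without MD + Veh replicate 1 and MD + PE replicate 2 together, 4 members were called for PE on CD (2.81% of all genes). In that fit 13 were called for MD with vehicle (8.98%) and 0 for PE on MD (0.432%). It called 9 for MD with PE (3.82%) and 17 for MD + PE against CD + Veh (13.3%). The cause of these shifts was not tested.

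Over all genes, 397 were called in CD + PE against CD + Veh, 247 with the clock score and 37 with library number as covariates. For MD with vehicle the count was 1410, and 381 with the clock score. For MD + PE against CD + Veh the counts were 1983, 1197 with the clock score and 923 with library number. For PE on MD, 147 genes were called, 303 by DESeq2, 73 with 2 groups only, 33 with library number and 58 without both libraries. For PE by diet, 1 gene was called, 82 by DESeq2, 41 with the replicate block and 54 with library number. A replicate block gave 4 members for PE on CD (3.08% of all genes) and 11 for MD with vehicle (10.6%). It gave 0 for PE on MD (1.31%) and 10 for MD with PE (4.46%). For MD + PE against CD + Veh it gave 17 (14.5%), and for PE by diet 0 (0.302%). The numbers do not pair the mice: of 27 pairs of libraries with the same number, 7 had a residual correlation above 0.1 (median 0.0467, from -0.257 to 0.413), and 4 of 19 libraries correlated best with their own number.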
